A study of Mus musculus with 6 samples.

Results

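The genes described here are 30 genes of glycolysis and of the response to low oxygen, chosen by symbol from the 33456 genes of the deposited tables. No measured value entered the rule of choice, but earlier results of these data were known when the genes were chosen. They comprise 14 glycolytic enzymes (Hk1, Hk2, Hk3, Gpi1, Pfkl, Pfkp, Aldoa, Tpi1, Gapdh, Pgk1, Pgam1, Eno1, Pkm and Ldha), 3 genes of transport and regulation (Slc2a1, Slc16a3 and Pfkfb3), the transcription factor gene Hif1a, and 12 hypoxia targets (Vegfa, Bnip3, Bnip3l, Egln3, Ero1l, Adm, Ndrg1, Pdk1, P4ha1, Ankrd37, Hilpda and Mif). All 30 symbols were found, each on 1 row. They were measured by single-cell RNA sequencing in cells of mouse epididymal fat, a visceral depot, that were freed with collagenase and sorted for the leukocyte antigen CD45 and the myeloid integrin chain CD11b. The study compared 3 samples of mice on a high-fat diet (HFD) with 3 samples of mice on the control diet, and its title speaks of long-term obesity. Strain, age, sex, genotype, the composition of the diets and the weeks of feeding are not given in the sources used here, and nothing says whether a sample is 1 animal or a pool. So the p-values set the diet difference against the scatter of these 6 samples, and that scatter may be technical.

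Of the 2195 distinct cell barcodes, 1082 (49.3%) were listed in several samples and 370 in all 6, so each barcode was counted only in the sample where it had most unique molecular identifiers (UMIs). This left 1128 HFD and 986 control cells, with 3587086 to 5708323 UMIs per HFD sample and 1997647 to 3874349 per control sample. The median cell held 9735 UMIs in HFD and 7233.5 in control. Clustering, run without the 30 genes, gave 1051 macrophage-like cells in 5 clusters. It also gave 231 fibroblast-like, 52 T cell-like and 47 B cell-like cells. The transcript of CD45, Ptprc, stood at 127.2 CPM (UMI counts scaled to a sum of 1000000) over all macrophage-like cells and at 18.2 CPM over the fibroblast-like cells, and that of CD11b, Itgam, at 132 and 10.3 CPM.

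Glycolysis splits glucose to pyruvate, and lactate dehydrogenase then turns pyruvate to lactate when the flow is fast or oxygen is short. The factor HIF-1 is a dimer whose alpha chain, encoded by Hif1a, is destroyed while oxygen is present; prolyl hydroxylases such as EGLN3 mark it for decay. Stabilised HIF-1 binds DNA elements with the core ACGTG or GCGTG and raises genes of glycolysis, of angiogenesis, of mitophagy and of lipid storage. In adipose macrophages both programs are studied in obesity, where the enlarged fat is thought to be poorly supplied with oxygen.

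One form of this core, ACGTG, was searched on both strands (so also as CACGT) in RefSeq promoter windows of GRCm38.p6, each 300 bases from 250 before to 50 after a transcript start. A window was found for 28 genes, not for Bnip3l and Ndrg1; Ero1l stands in RefSeq as Ero1a. At least 1 match was present in a window of 21 of the 28 (75.0%), against 21.8% of the 27025 genes of the table, and in 23 of the 39 single windows (59.0%), against 19.6% of 32851. By role, 9 of 14 enzymes, 8 of 10 targets with a window, all 3 genes of transport and regulation and Hif1a itself had a match. Gpi1, Pfkl, Pfkp, Tpi1, Eno1, Adm and Pdk1 had none in these windows. Both letter strings overlap in CACGTG, where each counts as a match. The windows of 6 genes on which the results below turn are printed 5′ to 3′ along the transcribed strand, with the matches in capitals. They include genes called higher, lower or not at all with HFD in whole-sample sums. All 6 were picked by hand and have a match. Genes without one are not printed, among them Tpi1, which was called higher, so the 6 do not relate matches to calls. For genes with several windows the one with most matches is shown, which gives 5 matches in Ldha, 3 in Hif1a and 1 in each other.
Ldha, chr7:46845554-46845853, plus strand: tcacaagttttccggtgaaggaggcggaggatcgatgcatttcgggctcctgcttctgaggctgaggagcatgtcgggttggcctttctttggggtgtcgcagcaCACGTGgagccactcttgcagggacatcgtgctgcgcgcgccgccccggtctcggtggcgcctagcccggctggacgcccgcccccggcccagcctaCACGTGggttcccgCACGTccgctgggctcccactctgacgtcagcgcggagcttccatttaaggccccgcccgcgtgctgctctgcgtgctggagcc
Aldoa, chr7:126799129-126799428, minus strand: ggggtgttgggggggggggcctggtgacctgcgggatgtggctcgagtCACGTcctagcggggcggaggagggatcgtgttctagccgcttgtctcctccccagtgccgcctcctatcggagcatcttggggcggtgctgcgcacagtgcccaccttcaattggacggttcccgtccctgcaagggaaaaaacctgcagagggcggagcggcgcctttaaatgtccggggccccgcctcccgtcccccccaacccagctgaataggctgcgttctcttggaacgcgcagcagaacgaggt
Hk3, chr13:55021336-55021635, minus strand: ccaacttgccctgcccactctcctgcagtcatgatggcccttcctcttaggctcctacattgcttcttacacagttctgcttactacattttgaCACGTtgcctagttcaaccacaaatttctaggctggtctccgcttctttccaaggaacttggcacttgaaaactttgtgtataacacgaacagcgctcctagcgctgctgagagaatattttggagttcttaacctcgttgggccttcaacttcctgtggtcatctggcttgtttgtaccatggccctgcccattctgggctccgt
Hif1a, chr12:73907617-73907916, plus strand: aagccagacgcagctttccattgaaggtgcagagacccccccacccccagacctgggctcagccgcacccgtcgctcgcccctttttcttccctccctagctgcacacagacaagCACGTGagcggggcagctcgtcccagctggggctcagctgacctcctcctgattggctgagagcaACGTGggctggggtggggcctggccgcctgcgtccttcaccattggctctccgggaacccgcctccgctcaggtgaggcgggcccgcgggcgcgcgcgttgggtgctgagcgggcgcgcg
Mif, chr10:75860228-75860527, minus strand: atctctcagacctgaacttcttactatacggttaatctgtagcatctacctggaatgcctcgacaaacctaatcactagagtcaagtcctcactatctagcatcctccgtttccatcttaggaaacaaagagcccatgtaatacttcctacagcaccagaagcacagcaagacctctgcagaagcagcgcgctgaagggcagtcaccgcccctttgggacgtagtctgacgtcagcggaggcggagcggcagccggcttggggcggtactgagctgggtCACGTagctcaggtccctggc
Hilpda, chr6:29272376-29272675, plus strand: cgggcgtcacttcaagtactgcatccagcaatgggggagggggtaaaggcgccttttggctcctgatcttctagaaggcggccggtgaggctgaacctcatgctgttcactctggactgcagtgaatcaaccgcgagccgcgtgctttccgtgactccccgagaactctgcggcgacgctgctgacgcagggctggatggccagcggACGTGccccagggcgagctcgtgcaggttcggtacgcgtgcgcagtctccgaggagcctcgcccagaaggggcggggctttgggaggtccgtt
A match is a description of these letters, not evidence of binding.

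With HFD the transcripts of several glycolytic enzymes were higher in the sorted cells as a whole, while those of Hif1a and of a few other members were lower. UMIs were summed per sample over all cells and tested with edgeR's quasi-likelihood test, as HFD minus control, and p-values were adjusted by the Benjamini-Hochberg method over 10450 genes. Of the 29 members tested 8 rose, 4 fell and 17 were not called at an adjusted p of 0.05; Egln3 was too low to test. Among all genes 15.2% rose and 17.2% fell. The median log2 fold change of the members was 0.20, and that of all genes -0.015. In such sums, fewer cells of a type and less RNA per cell cannot be told apart. Of the 8 that rose 7 were enzymes.

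The hexokinases, which trap glucose in the cell as glucose 6-phosphate, went different ways. Hk3, the hexokinase of myeloid cells, stood at 50.1, 37.9 and 45.3 CPM in HFD samples 1 to 3, against 12.9, 20.02 and 19.9 CPM in control samples 1 to 3. The diets did not overlap, and the change on the log2 scale came to 1.24 ± 0.18 (SE, adjusted p = 0.0014). Hk2, the inducible form of muscle and fat, stood at 45.7, 42.1 and 56.8 CPM in HFD, against 58.6, 69.1 and 57.1 CPM in control. All HFD samples lay below all control samples, HFD sample 3 only just, and the change was -0.49 ± 0.14 (adjusted p = 0.03). Hk1, the housekeeping form, was at 18.9 to 21.6 CPM in HFD and 16.02 to 17.3 CPM in control and was not called (adjusted p = 0.71). The Hk2 call was lost without HFD sample 1 or 2 (both adjusted p = 0.11), control sample 1 (0.052) or control sample 2 (0.09), and its sign turned with 3000 UMIs drawn from every cell (0.08) and with barcodes listed in 1 sample alone (0.33), a setting in which Hk3 differed by only 0.06.

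In the steps from fructose bisphosphate to triose phosphates and on to pyruvate and lactate, the calls all pointed upward. Aldoa, the aldolase that splits fructose 1,6-bisphosphate, stood at 667, 611 and 591 CPM in HFD, against 306, 279 and 277 CPM in control. Every HFD sample lay far above every control sample, and the change came to 0.97 ± 0.09 (adjusted p = 0.00023). Pkm, the pyruvate kinase of the last step to pyruvate, stood at 649, 543 and 581 CPM in HFD, against 272, 308 and 288 CPM in control. The gap between the diets again far exceeded the spread within them (0.89 ± 0.10, adjusted p = 0.00035). Tpi1, which interconverts the triose phosphates, stood at 174, 164 and 151 CPM in HFD and 82.3, 92.6 and 97.7 CPM in control, without overlap (0.70 ± 0.09, adjusted p = 0.00077). Aldoa, Pkm and Tpi1 were called in every alternative run on these sums. Ldha, the lactate dehydrogenase chain of fast glycolysis, stood at 504.5, 447 and 431 CPM in HFD, against 306, 312 and 329.5 CPM in control. Its groups did not overlap, with a change of 0.40 ± 0.09 (adjusted p = 0.0076), and the call held without any 1 sample but not as deposited (adjusted p = 0.053).

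Smaller rises were called for Gapdh and Pgam1. Gapdh, which oxidises glyceraldehyde 3-phosphate and often serves as a reference gene, stood at 755, 638 and 717 CPM in HFD, against 525.5, 526 and 498 CPM in control. HFD lay above control in every sample, but the change was only 0.30 ± 0.10 (adjusted p = 0.038), and it was lost without HFD sample 1 (0.14), HFD sample 3 (0.11), control sample 2 (0.074) or control sample 3 (0.071). Pgam1, a phosphoglycerate mutase, stood at 173, 141 and 151 CPM in HFD and at 106, 82.6 and 115 CPM in control. These did not overlap (0.47 ± 0.13, adjusted p = 0.02), and the call was lost without HFD sample 1 (0.084), HFD sample 3 (0.051) or control sample 2 (0.052). The enzymes not called were Hk1, Gpi1, Pfkl, Pfkp, Pgk1 and Eno1, with log2 differences of -0.44 to 0.20. Pfkl and Pfkp, subunits of phosphofructokinase, the committing step, were among them at -0.44 ± 0.24 and -0.22 ± 0.11. Gapdh, Ldha, Pgk1, Pgam1, Eno1, Aldoa, Pkm, Tpi1 and Mif have near-identical copies in the genome, and their values are uncertain where counting divided reads between copies.

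**Figure D1:**
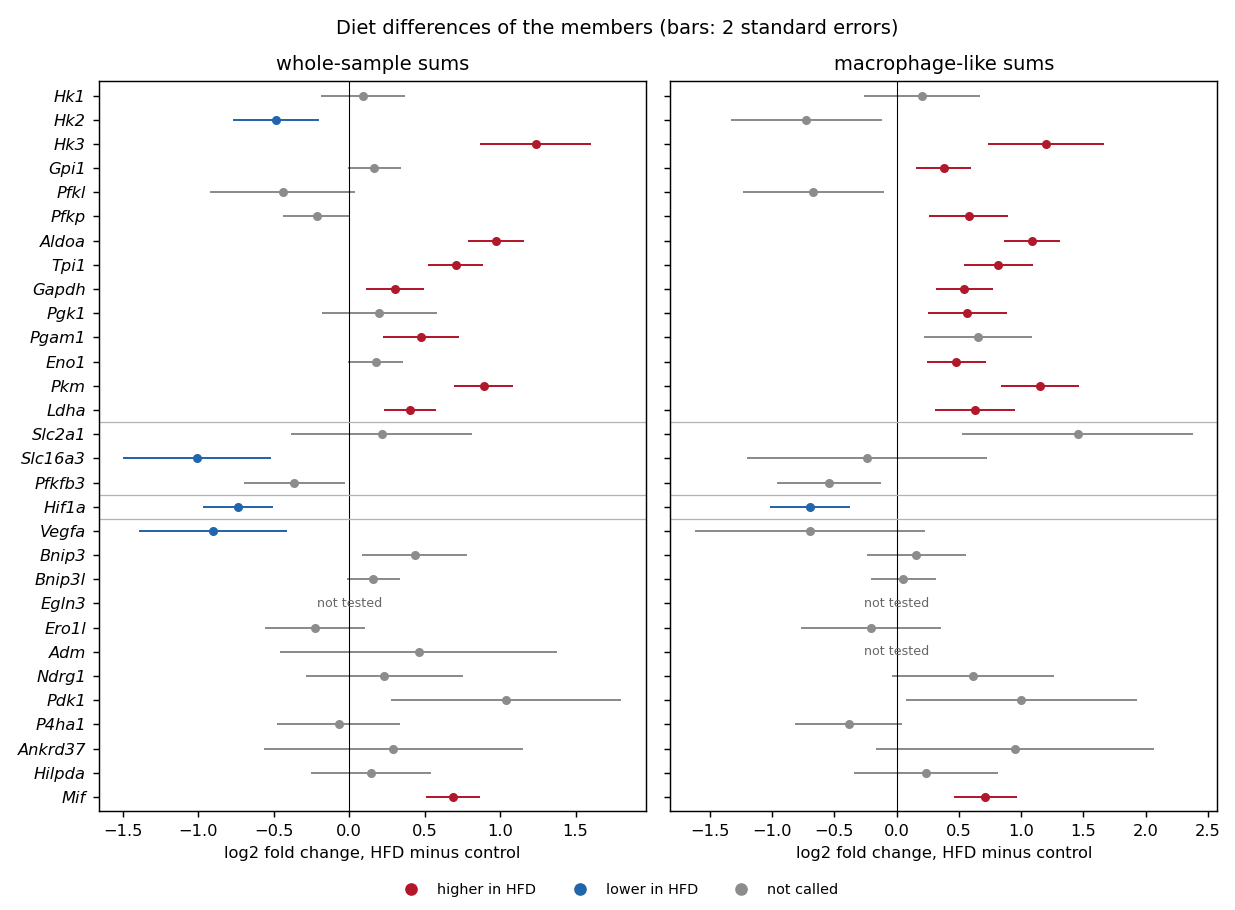
Log2 fold changes (HFD minus control, horizontal axis) of the members in whole-sample sums and in macrophage-like sums, from edgeR; bars are 2 standard errors, and colour marks the call at an adjusted p of 0.05. Aldoa (0.97 and 1.09) and Pkm (0.89 and 1.15) lie right of zero in both, and Hif1a (-0.74 and -0.70) lies left of it.

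Among transport and regulation, Slc16a3, the lactate exporter MCT4, stood at 11.9, 16.5 and 16.1 CPM in HFD, against 25.0, 37.0 and 19.5 CPM in control. All HFD samples were below all control samples, and Slc16a3 was lower (-1.006 ± 0.245 on the log2 scale, adjusted p = 0.013), a call lost without HFD sample 1 (0.06) and with barcodes of 1 sample alone (0.17). Slc2a1, the glucose transporter GLUT1, stood at 12.6, 9.20 and 11.7 CPM in HFD, against 5.94, 14.02 and 8.11 CPM in control. The diets overlapped, and the difference was 0.21 ± 0.30 (adjusted p = 0.62). Pfkfb3, which makes the activator of phosphofructokinase, was not called either (-0.36 ± 0.17, adjusted p = 0.13).

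Hif1a stood at 32.2, 39.0 and 35.2 CPM in HFD, against 51.9, 57.1 and 51.6 CPM in control. The groups were well apart in the downward direction (-0.74 ± 0.12, adjusted p = 0.0018), and the call held without any 1 sample. With 3000 UMIs drawn per cell the difference was -0.34 (adjusted p = 0.18), and with barcodes of 1 sample alone -0.51 (0.075). The activity of HIF-1 is set mostly at the level of its protein, which was not measured.

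Of the 12 hypoxia targets 11 were tested, of which Mif rose, Vegfa fell and 9 were not called. Mif, a cytokine of macrophages that is also a reported HIF target, stood at 252, 222 and 253 CPM in HFD, against 138, 132 and 139 CPM in control. The diets were far apart and each was tight (0.69 ± 0.09, adjusted p = 0.00076), and the call held in every alternative run on these sums. Vegfa, the angiogenic factor and textbook HIF target, stood at 10.9, 10.04 and 9.90 CPM in HFD, against 11.4, 21.5 and 21.4 CPM in control. Control sample 1 lay close to HFD, so that the fall of 0.90 ± 0.24 (adjusted p = 0.021) was not called without HFD sample 1 (0.059), HFD sample 2 (0.063), HFD sample 3 (0.059), control sample 2 (0.066) or control sample 3 (0.07). Hilpda, which coats lipid droplets and inhibits lipolysis, was at 274 to 327 CPM in HFD and 157 to 307 CPM in control, with control samples spread over nearly the whole range (0.14 ± 0.20, adjusted p = 0.62). Pdk1, the kinase that closes the entry of pyruvate into mitochondria, had the largest difference among targets not called (1.04 ± 0.38, adjusted p = 0.066). The mitophagy receptor Bnip3 followed at 0.43 ± 0.17 (0.086). Its relative Bnip3l, the oxidoreductase Ero1l, the vasodilator peptide Adm, the stress gene Ndrg1, the collagen prolyl hydroxylase P4ha1 and the ankyrin protein Ankrd37 had differences of -0.23 to 0.46. Egln3, the prolyl hydroxylase that HIF-1 itself induces, was at 0.35 to 0.56 CPM in HFD and 0.74 to 1.55 CPM in control.

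In all, 14 members had every HFD sample above every control sample in CPM and 4 called members had the reverse order; 31.8% of all tested genes were above and 17.7% below. Marker lists of cell types moved with diet in the same sums. All 8 fibroblast markers rose, with a summed level of 6383 to 7437 CPM in HFD and 955 to 2187 CPM in control. Of 10 lipid-associated macrophage markers 7 rose, summed 8269 to 11020 CPM in HFD and 1427 to 5055 CPM in control. Of 10 resident macrophage markers 9 fell, summed 2192 to 2318 CPM in HFD and 3963 to 5147 CPM in control. None of these markers was at 0 in all samples. Their part in the members' differences was not tested.

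The macrophage-like cells, 651 in HFD and 400 in control, held more called enzymes than the whole. HFD cells stood mostly in cluster 1, led by C1q genes, and in clusters 3 and 4, led by lipid-associated genes such as Trem2, Lpl and Gpnmb; control cells stood mostly in cluster 0, led by Cd209f, Pf4 and Folr2. Of 28 members tested 11 rose and 1 fell, where 8.56% of the 8668 genes tested rose and 11.9% fell; Egln3 and Adm were not tested. Without each sample in turn, 5 members were called higher without HFD sample 1, 8 without HFD sample 2, 6 without HFD sample 3, 9 without control sample 1, 6 without control sample 2 and 13 without control sample 3. The members' median log2 fold change was 0.51, and that of all genes -0.03. Of the 14 enzymes 10 rose and none fell (2 had a negative difference at an unadjusted p under 0.05 by edgeR): every one but Hk1, Hk2, Pfkl and Pgam1. Pgam1 missed the threshold (0.65 ± 0.22, adjusted p = 0.058) but was called without control sample 3 (0.0014), and without that sample Hk2 (-0.73, 0.12 with all samples) and Pfkl (-0.67, 0.12 with all samples) were called lower (0.042 and 0.046). Mif was the other gene to rise.

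In these cells Aldoa stood at 747, 646.5 and 633 CPM in HFD, against 291, 288 and 315 CPM in control. Pkm stood at 756, 595 and 646 CPM in HFD, against 222.5, 285 and 341 CPM in control. For both the diets were wide apart, with log2 fold changes of 1.09 ± 0.11 (adjusted p = 0.00042) and 1.15 ± 0.16 (0.0015), and they, like Tpi1 (0.82 ± 0.14, 0.004), were called in every alternative run on these sums. Hk3 stood at 65.9, 48.7 and 54.8 CPM in HFD, against 15.8, 21.7 and 32.7 CPM in control. It rose by 1.20 ± 0.23 (adjusted p = 0.0078) with no overlap, and held without any 1 sample. Its call was lost with barcodes of 1 sample alone (0.41, adjusted p = 0.45), with 3000 UMIs drawn per cell (0.93, 0.064) and in cells gated on C1q UMIs (0.92, 0.13). That gate took cells of any cluster with at least 3 UMIs of C1qa, C1qb and C1qc together. It left out every cell with a UMI of Dcn, Col1a1, Col3a1, Cd3e or Cd79a. The gate held 69, 32 and 41 HFD cells and 114, 145 and 171 control cells, a different set from the macrophage-like clusters.

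Gapdh stood at 812.5, 698.5 and 755 CPM in HFD, against 449, 469 and 543 CPM in control. The rise was 0.54 ± 0.11 (adjusted p = 0.011) and was lost without HFD sample 1 (0.06) and in cells gated on C1q UMIs. Ldha stood at 566, 467 and 448 CPM in HFD, against 239, 288 and 375 CPM in control, where control sample 3 came nearest to HFD. Its rise of 0.63 ± 0.16 (adjusted p = 0.024) was lost without HFD sample 1 (0.1), HFD sample 2 (0.058), HFD sample 3 (0.051) or control sample 2 (0.083). The Ldha call was lost as deposited and with the replicate number as a block too.

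Calls that the whole-sample sums did not give were made for 4 enzymes. Gpi1, the glucose 6-phosphate isomerase, stood at 228, 242 and 226 CPM in HFD, against 173, 156 and 171 CPM in control. Pfkp, a phosphofructokinase subunit, stood at 47.7, 39.7 and 47.6 CPM in HFD, against 25.3, 31.8 and 29.3 CPM in control. Pgk1, the first enzyme of glycolysis to yield ATP, stood at 85.9, 71.5 and 85.4 CPM in HFD, against 41.1, 53.5 and 61.1 CPM in control. The diets were separate for each of them and for Eno1, the enolase, at 443, 397 and 416.5 CPM in HFD and 268, 255 and 323 CPM in control. Log2 fold changes were 0.38 ± 0.11 for Gpi1 (adjusted p = 0.037), 0.58 ± 0.16 for Pfkp (0.03), 0.57 ± 0.16 for Pgk1 (0.032) and 0.48 ± 0.12 for Eno1 (0.021). None of these 4 held without each sample. Gpi1 was lost without HFD sample 1 (0.1), HFD sample 2 (0.12), HFD sample 3 (0.091) or control sample 2 (0.089), and Eno1 without HFD sample 1 (0.093), HFD sample 2 (0.053), HFD sample 3 (0.069) or control sample 2 (0.066). Pfkp was lost without HFD sample 1 (0.1), HFD sample 3 (0.085), control sample 1 (0.11) or control sample 2 (0.052), and Pgk1 without HFD sample 1 (0.11), HFD sample 3 (0.092), control sample 1 (0.11) or control sample 2 (0.081). Gpi1, Pfkp and Pgk1 were also not called with DESeq2, with the replicate number as a block or without cells over 20000 UMIs. The same held with 3000 UMIs drawn per cell. Gpi1 was lost with barcodes of 1 sample alone and with clusters of the entries as deposited too, and Pfkp as deposited. In cells gated on C1q UMIs Gpi1, Pgk1 and Eno1 were lost, and Pfkp turned to -0.52.

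Slc2a1 showed its clearest diet difference in macrophage-like cells, at 15.6, 11.2 and 10.2 CPM in HFD, against 1.37, 4.34 and 7.75 CPM in control. The diets did not overlap, and the log2 difference of 1.45 ± 0.46 fell just outside the threshold (adjusted p = 0.051, and 0.0018 to 0.19 over the alternatives); it was called without control sample 3 (0.012). Hif1a stood at 25.7, 28.1 and 27.2 CPM in HFD, against 45.9, 33.3 and 40.5 CPM in control. It was again lower without overlap (-0.70 ± 0.16, adjusted p = 0.016), a call lost without HFD sample 1 (0.077), HFD sample 3 (0.051) or control sample 1 (0.088) and under 6 other alternatives (adjusted p up to 0.37). Mif stood at 259, 226 and 240 CPM in HFD, against 118, 143 and 156 CPM in control, and rose by 0.71 ± 0.13 (adjusted p = 0.0051) with the diets well apart. Its call held without any 1 sample but was lost as deposited, with barcodes of 1 sample alone and in cells gated on C1q UMIs (down to 0.25, adjusted p up to 0.11).

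The remaining targets were not called in macrophage-like cells. Vegfa stood at 8.98, 8.68 and 11.7 CPM in HFD, against 4.79, 27.5 and 18.1 CPM in control. Control sample 1 was the lowest of all 6 and control sample 2 the highest (-0.70 ± 0.46, adjusted p = 0.31), and without control sample 1 Vegfa was called lower (0.025). Hilpda stood at 341, 351.5 and 334 CPM in HFD, against 133, 302 and 394 CPM in control, so that HFD samples fell inside the range of control (0.23 ± 0.29, adjusted p = 0.61). Across the macrophage-like sums 14 members were above control in every HFD sample and 2 below, against 24.4% and 16.8% of the genes tested.

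**Figure D2:**
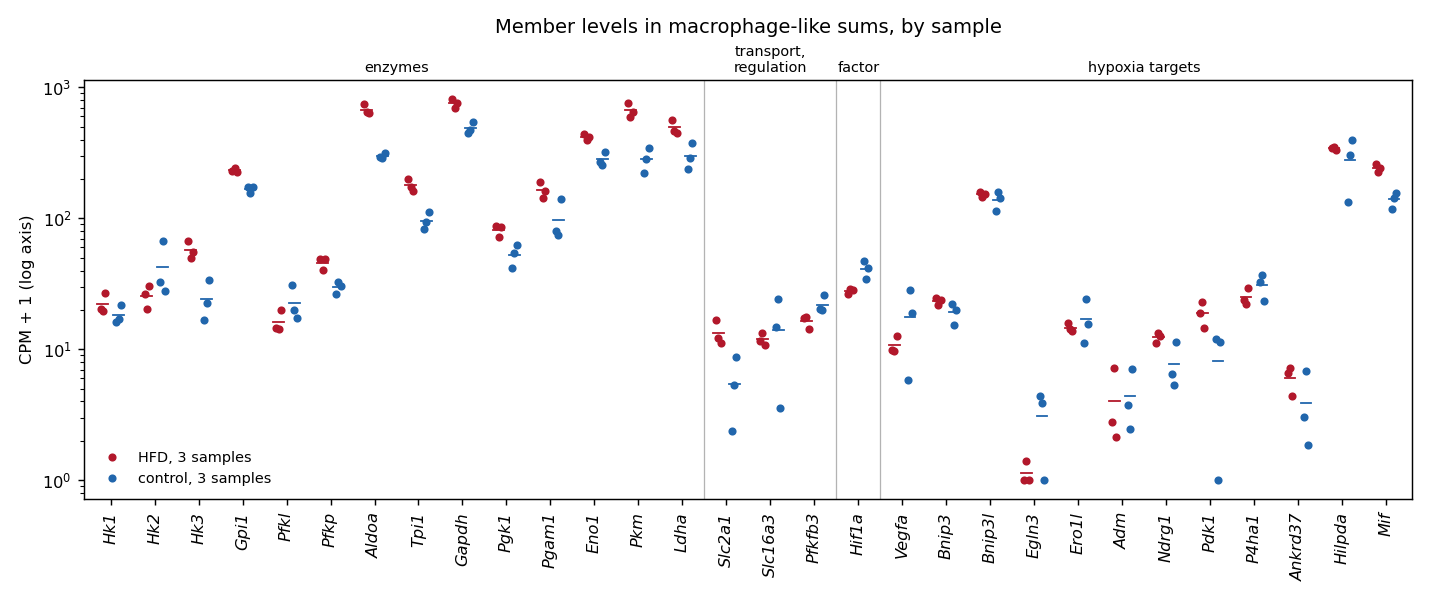
Level of each member in macrophage-like sums (vertical axis, CPM + 1, log scale), 1 point per sample, HFD left of control within each gene, ordered by role. The points of the diets separate for Aldoa, Pkm and Hk3 among the enzymes and mix for Hilpda and Vegfa among the targets.

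Other lists moved with diet inside the macrophage-like cells too. Lipid-associated markers summed to 9995 to 13870 CPM in HFD and 1612 to 7381 CPM in control (5 of 10 rose). Resident markers summed to 2706 to 3119 CPM in HFD and 7431 to 10880 CPM in control (10 of 10 fell). Genes of the response to tissue digestion summed to 9190 to 9647 CPM in HFD and 11640 to 13590 CPM in control (9 of 12 fell), fibroblast markers to 819 to 903 CPM in HFD and 244.5 to 423 CPM in control, and cycling markers to 147 to 188 CPM in HFD and 39.6 to 60.9 CPM in control. Their part in the members' differences was not tested.

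Outside the macrophage-like clusters, in 1063 cells, fewer enzymes were called. Of 29 members tested 4 rose and 3 fell, where 14% of genes tested rose and 14.4% fell. Aldoa stood at 496, 538 and 533 CPM in HFD and 315, 274 and 249 CPM in control, clear of each other (0.72 ± 0.12, adjusted p = 0.0016). Mif stood at 238, 213.5 and 271 CPM in HFD and 150.0, 125.5 and 127 CPM in control, likewise clear (0.67 ± 0.14, adjusted p = 0.0047). Both held without any 1 sample. Pkm (0.45 ± 0.13, adjusted p = 0.031) was lost without HFD sample 1 (0.051), HFD sample 2 (0.062), HFD sample 3 (0.11) or control sample 3 (0.11). Tpi1 (0.43 ± 0.12, 0.025) was lost without HFD sample 2 (0.084), HFD sample 3 (0.076), control sample 1 (0.078) or control sample 3 (0.074). Slc16a3 fell by 0.92 ± 0.24 (adjusted p = 0.015) and lost its call without HFD sample 1 (0.063). Pfkp fell by 0.45 ± 0.14 (0.034), a call that held without control sample 3 but was lost without HFD sample 1 (0.13), HFD sample 2 (0.053), HFD sample 3 (0.071), control sample 1 (0.11) or control sample 2 (0.059). Vegfa fell by 0.88 ± 0.30 (0.049) and was lost without HFD sample 2 (0.083), HFD sample 3 (0.15), control sample 2 (0.072) or control sample 3 (0.14). Gapdh did not differ detectably here (0.01 ± 0.14), and Hk2 was slightly above control in each HFD sample (0.11 ± 0.12, adjusted p = 0.55). Hif1a (-0.44, 0.066) was called without HFD sample 2 (0.034), Pgam1 (0.26, 0.22) without control sample 1 (0.038) and Adm (1.26, 0.069) without control sample 3 (0.034). These cells included 207 fibroblast-like cells in HFD and 24 in control, and the part of that in the result was not tested. Whether diet differences inside and outside the macrophage-like clusters differ from each other was not tested.

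The cluster with the highest level differed from gene to gene, given here as a description because the clusters come from the same cells and each level pools both diets. Over the 15 clusters of at least 30 cells, cluster 4, with lipid-associated markers and 186 HFD cells of 196, was the highest for Hk3, Aldoa, Tpi1, Pgk1, Eno1, Pkm, Slc2a1 and Pdk1. Of these, Aldoa and Pkm had cluster 4 highest in each HFD sample among clusters with a level there, and the other genes did not. Eno1 was higher in cluster 6 (697 and 506 CPM) than in cluster 4 (564.5 and 500.0 CPM) in HFD samples 1 and 2. The cycling cluster 13 was the highest for Gpi1, Gapdh, Pgam1 and Ldha. The fibroblast-like cluster 2 was the highest for Hk2 (202.9 CPM), Adm (206 CPM), Bnip3, Ndrg1 and P4ha1. Hilpda was highest in cluster 3 (655 CPM), the other cluster with lipid-associated markers, and Pfkfb3 in the migratory dendritic cell-like cluster (96.2 CPM). Slc16a3 was highest in cluster 6 (57.9 CPM), an unnamed cluster led by Il1b, and Hif1a in the unnamed cluster 8 (86.0 CPM), in which Vegfa was highest as well (36.3 CPM). Cluster 6 held 94 HFD and 66 control cells, and cluster 8 held 13 HFD and 119 control cells. The T cell-like cluster 9 was the highest for Mif (362.5 CPM), Hk1 (32.5 CPM), Ero1l (32.5 CPM) and Egln3 (10.8 CPM). It held only 52 cells, and its low levels rest on few UMIs. For Egln3, cluster 11 was almost level with it at 10.3 CPM. Pfkl was highest in cluster 11, Pfkp in cluster 5 (3 HFD and 164 control cells), Bnip3l in cluster 3 and Ankrd37 in cluster 6.

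**Figure D3:**
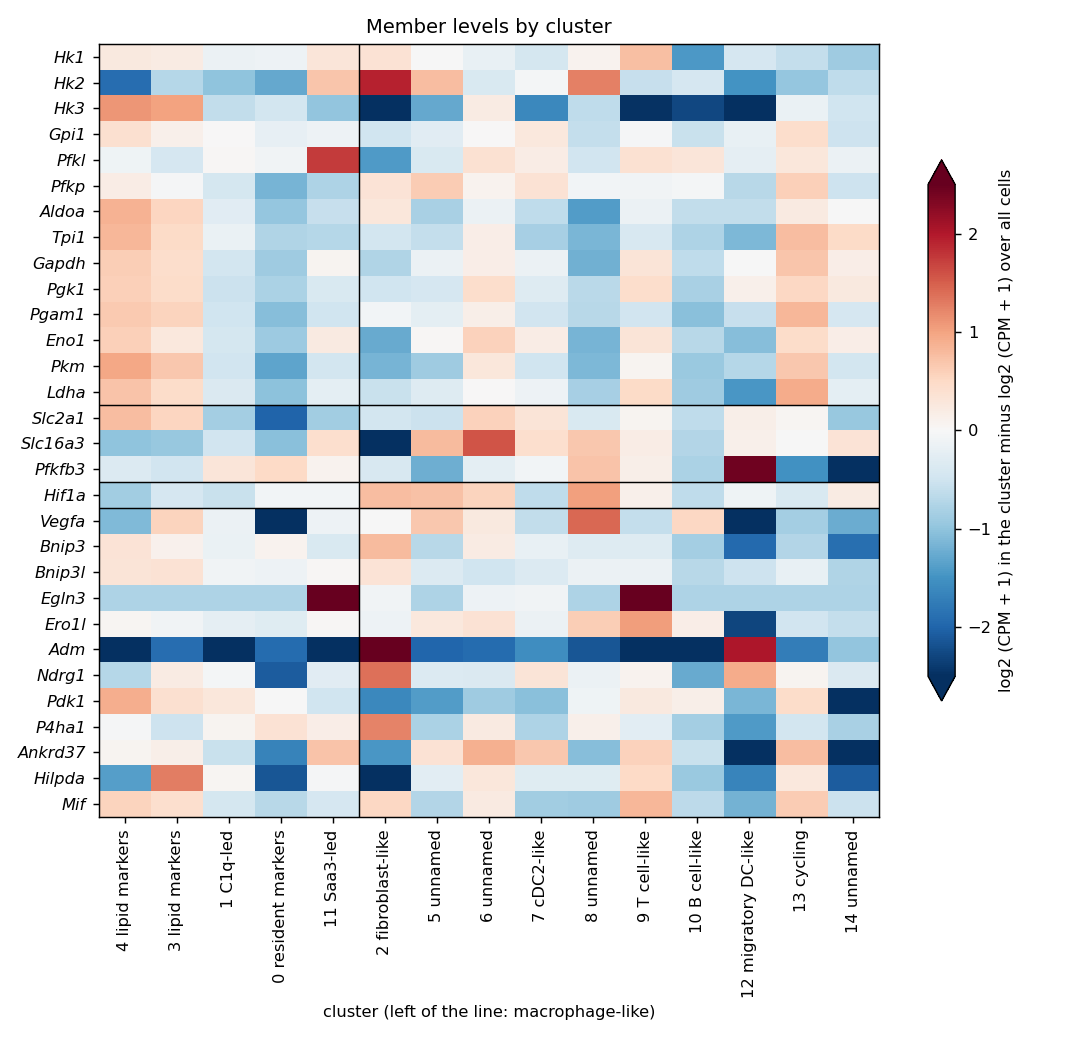
Level of each member (rows, by role) in each cluster of at least 30 cells (columns, macrophage-like left of the line), as log2 (CPM + 1) in the cluster minus log2 (CPM + 1) over all cells; colours saturate at the ends of the scale. Aldoa and Pkm are red in cluster 4 and blue in cluster 0, and Hilpda is red in cluster 3 and blue in cluster 4.

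Within HFD, the macrophage-like clusters can be set beside each other sample by sample. Aldoa was at 965, 839.5 and 912 CPM in cluster 4, 806, 791 and 721 CPM in cluster 3, 444, 420.4 and 389 CPM in cluster 1 and 379, 327 and 413.5 CPM in cluster 0 of HFD samples 1 to 3. The order of clusters 4, 3 and 1 was the same in each HFD sample, while clusters 1 and 0 changed places in sample 3. Hilpda was at 114, 98.8 and 61.3 CPM in cluster 4, 624, 615 and 559 CPM in cluster 3, 275.5, 346 and 282 CPM in cluster 1 and 32.7, 134 and 65.3 CPM in cluster 0. So the cluster with the most Aldoa held less Hilpda than clusters 3 and 1 in each HFD sample. The summed enzyme level in HFD was 4478 to 5411 CPM in cluster 4, 4175 to 4541 in cluster 3, 2255 to 2607 in cluster 1 and 2253 to 2363 in cluster 0. The summed target level was 662 to 686.5 CPM in cluster 4, 1073 to 1226.5 in cluster 3, 641 to 746 in cluster 1 and 398 to 500.5 in cluster 0.

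Diet was also compared inside single clusters, using samples with at least 10 cells of the cluster, a minimum chosen after the data were seen. In cluster 0 (43 HFD and 274 control cells), 2 of 13 members tested rose and none fell, where 1.27% of genes tested rose and 2.24% fell. Pkm stood at 300.4, 253 and 399 CPM in HFD, against 165, 189.5 and 137 CPM in control. Ldha stood at 326.5, 357 and 247 CPM in HFD, against 177, 146 and 184 CPM in control. Neither overlapped, with log2 fold changes of 0.88 ± 0.21 (adjusted p = 0.039) and 0.78 ± 0.20 (0.042). All 9 enzymes tested in cluster 0 had positive differences, Aldoa at 0.69 ± 0.19 (adjusted p = 0.069) among them.

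In cluster 3 (178 HFD cells of 3 samples, and 12 and 26 control cells of samples 2 and 3), 1 member rose and 2 fell of 24 tested, where 1.36% of genes tested rose and 2.37% fell. Aldoa stood at 806, 791 and 721 CPM in HFD, against 451 and 434 CPM in control (0.72 ± 0.15, adjusted p = 0.0071). Hilpda stood at 624, 615 and 559 CPM in HFD, against 1044 and 952 CPM in control. It fell without overlap (-0.82 ± 0.14, adjusted p = 0.0013). Vegfa stood at 15.2, 7.55 and 14.9 CPM in HFD, against 112.8 and 38.2 CPM in control, and fell by 2.18 ± 0.47 (adjusted p = 0.0093) although its control samples were far from each other. In clusters 1, 2, 6 and 7 no member was called, where 0.171%, 0.512%, 0.457% and 3.59% of genes tested rose and 0.248%, 0.530%, 0.211% and 2.49% fell. An unadjusted p under 0.05 by edgeR was reached by 5 of 26 members in cluster 1 and 2 of 20 in cluster 2. It was reached by 3 of 16 in cluster 6 and 1 of 14 in cluster 7. Among all genes tested, 604 of 6447, 605 of 5469, 377 of 2845 and 487 of 2449 reached it in these clusters. In clusters 2 and 7 the share of members was below that of all genes. In cluster 1 Hilpda had the opposite order, at 275.5, 346 and 282 CPM in HFD, against 168 and 108 CPM in control samples 2 and 3 (1.18 ± 0.26, adjusted p = 0.07). No class outside the macrophage-like clusters met the planned minimum of 20 cells in 2 samples of each diet.

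Summed over roles, HFD stood above control for both enzymes and targets over whole samples, but not for targets inside every cluster. Over whole samples the 14 enzymes summed to 3805, 3378 and 3509 CPM in HFD, against 2321, 2345 and 2298 CPM in control, a ratio of 1.54. The 12 targets summed to 815, 844 and 789 CPM in HFD, against 503, 629.7 and 698 CPM in control, a ratio of 1.34. Both sums were separate between the diets. Without Mif the targets overlapped, at 562.5, 622 and 536 CPM in HFD and 365, 498 and 558 CPM in control. The ratios were 1.74 for enzymes and 1.28 for targets in macrophage-like cells, and 1.28 and 1.33 outside them. In macrophage-like cells the enzymes summed to 4199, 3571 and 3709 CPM in HFD, against 1962, 2116 and 2503.5 CPM in control, and the targets to 863, 831.5 and 833 CPM in HFD, against 457, 721 and 793.5 CPM in control. Without Mif and Hilpda, the targets of macrophage-like cells summed to 263, 254.5 and 259 CPM in HFD and 206, 275 and 244 CPM in control, so that control sample 2 lay above all HFD samples. For each target UMI the macrophage-like cells held 4.87, 4.29 and 4.45 enzyme UMIs in HFD, against 4.30, 2.94 and 3.16 in control. Control sample 1 lay just inside the HFD range there. Inside cluster 3 the targets summed to 1226.5, 1160 and 1073 CPM in HFD, against 1655 and 1457 CPM in control samples 2 and 3. In cluster 1 they summed to 641, 746 and 693.5 CPM in HFD, against 427 and 408 CPM in the same control samples. In clusters 0 and 2 the diets overlapped. These sums rest on the abundant genes and carry no test.

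**Figure D4:**
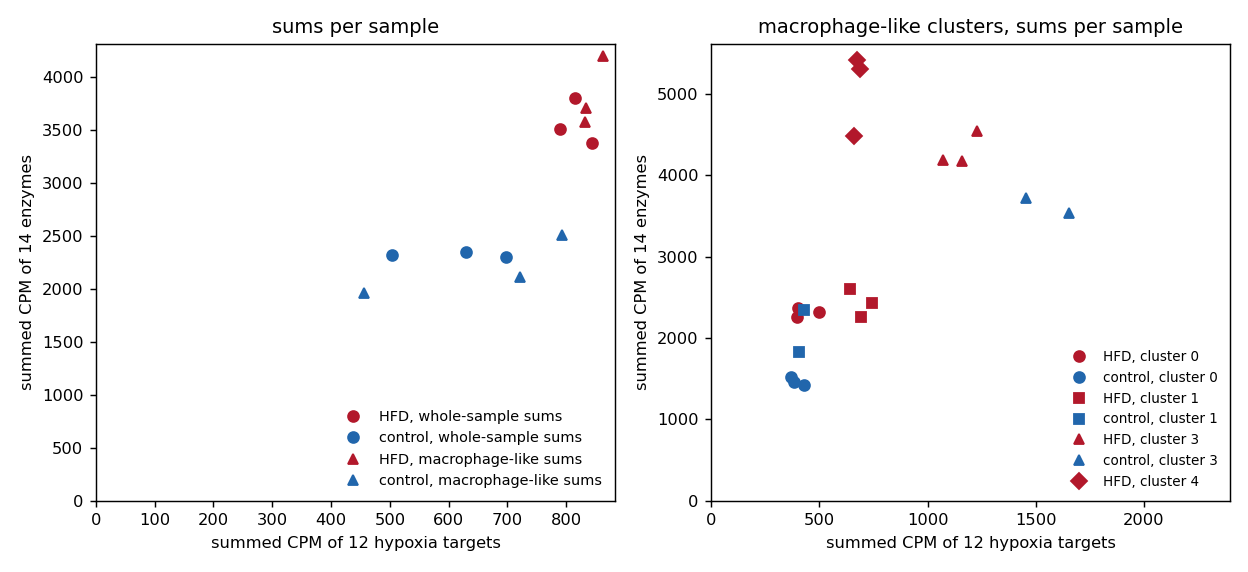
Summed CPM of the 14 enzymes (vertical axis) against that of the 12 hypoxia targets (horizontal axis), 1 point per sample, for whole-sample and macrophage-like sums (left) and for single macrophage-like clusters with at least 10 cells (right); HFD red, control blue. On the left HFD points lie at 3378 to 4199 CPM of enzymes and control points at 1962 to 2503.5 CPM; on the right cluster 4 has the highest enzyme sums at 662 to 686.5 CPM of targets.

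Per cell, enzymes and targets went together weakly. With each cell thinned to 3000 UMIs, which left out 30 HFD and 129 control cells below that depth, Spearman's rho between the summed enzyme and summed target UMIs of a cell was 0.10 to 0.21 over the 6 samples. Among macrophage-like cells it was 0.17 to 0.36. Without Mif and Hilpda the range was -0.03 to 0.06 over all cells and 0.06 to 0.14 over macrophage-like cells. At 2000 UMIs per cell rho was 0.05 to 0.15 over all cells and 0.07 to 0.24 over macrophage-like cells. Without Mif and Hilpda it was then -0.10 to 0.03 and -0.11 to 0.08, so its sign was not steady in macrophage-like cells either. The cells of a sample share a library, and at both depths the targets without Mif and Hilpda gave under 1 UMI per cell on average, so these values are descriptions only.

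The share of macrophage-like cells with a UMI of a gene was compared at 3000 UMIs per cell. Pkm was seen in 76.1% ± 0.9 of HFD cells and 44.0% ± 1.2 of control cells, and Aldoa in 78.2% ± 2.4 of HFD cells and 50.8% ± 1.0 of control cells (SD, n = 3 each). Mif was seen in 43.5% ± 2.7 of HFD cells and 29.4% ± 4.2 of control cells. Hif1a was seen in 8.0% ± 1.0 of HFD cells and 9.2% ± 2.8 of control cells, with overlap. For 16 of the 30 members all HFD samples lay above all control samples and for 3 (Pfkl, Pfkfb3 and P4ha1) below, where 16.4% of the genes tested in these cells lay above and 12.1% below. Each has a two-sided exact permutation p of 0.1, the smallest that 3 against 3 samples allow. Without thinning 24 lay above and none below, where 66.2% of genes lay above and 2.77% below, with Pkm in 93.1% of HFD cells and 63.9% of control cells. As a measure of free RNA, Dcn, a fibroblast gene, was seen in 38.3% ± 4.4 of HFD and 23.1% ± 9.6 of control macrophage-like cells at the same depth. It was seen in 34.5%, 37.2% and 43.1% of HFD cells, against 32.4%, 13.2% and 23.6% of control cells, so that for Dcn too all HFD samples lay above all control samples. The part of free RNA in the shares of the members was not tested. Members seen in no larger shares than Dcn, Hif1a, Hk3 and Slc2a1 among them, are therefore not read as shares of cells that express the gene.

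**Figure D5:**
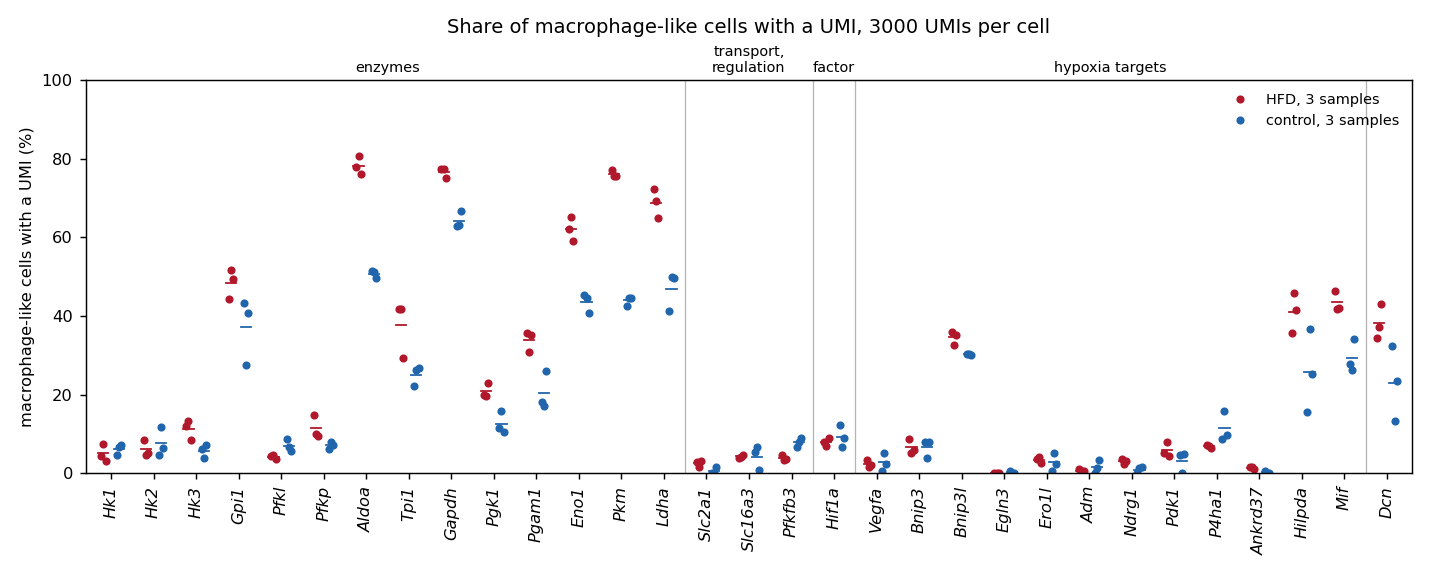
Share of macrophage-like cells with at least 1 UMI of each member (vertical axis, percent), each cell thinned to 3000 UMIs, 1 point per sample, HFD left of control; Dcn, a fibroblast gene, stands at the right end for comparison. Pkm lies at 76.1% in HFD and 44.0% in control, above the level of Dcn in both.

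Other genes of the same pathways, 72 in 5 lists, were read from the same fits. Over whole samples 59 were tested, of which 14 rose and 9 fell, with a median log2 fold change of 0.14. Among all genes tested in these sums 15.2% rose and 17.2% fell. Glycolytic isoforms and neighbours gave 3 rises and 1 fall of 16 tested, pentose phosphate genes 1 rise of 8, pyruvate entry 2 rises of 12, and oxygen sensing 1 rise and 1 fall of 6. Among other hypoxia targets 7 rose and 7 fell of 17 tested. Tfrc, the transferrin receptor, stood at 9.11, 8.64 and 10.8 CPM in HFD, against 32.8, 35.5 and 45.3 CPM in control, with the groups far apart (-2.12 ± 0.17, adjusted p = 0.00012). Further falls were those of Ddit4, an inhibitor of mTORC1 (-1.81), Slc2a6, a lysosomal glucose transporter (-1.68), the clock-linked repressor Bhlhe40 (-1.04) and Cited2, a competitor of HIF-1 for its coactivator (-0.83), and Hmox1, heme oxygenase 1 (-0.51), whose samples overlapped in CPM. Rises were those of Epas1, which encodes HIF-2alpha (2.25), the neuronal enolase Eno2 (1.90), Bhlhe41 (1.34), the lipoprotein lipase inhibitor Angptl4 (0.97), the glucose transporter Slc2a8 (0.68) and Mpc1, a subunit of the mitochondrial pyruvate carrier (0.50).

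In macrophage-like cells 49 of the 72 were tested, of which 6 rose and 4 fell, with a median log2 fold change of 0.14. Among all genes tested in these cells 8.56% rose and 11.9% fell. Mpc1 stood at 215, 187 and 201 CPM in HFD, against 112, 99.8 and 141 CPM in control, without overlap (0.67 ± 0.14, adjusted p = 0.0099). Eno2, with 23, 13 and 15 UMIs in HFD and 1, 2 and 0 in control, rose as well (adjusted p = 0.026). Tfrc (-2.45), Cited2 (-1.20) and Hmox1 (-0.94) fell. Among the genes named above as rising over whole samples, Epas1 (1.07, adjusted p = 0.21) and Bhlhe41 (0.95, 0.091) were not called here. Angptl4 (-0.08, 0.78) and Slc2a8 (0.28, 0.3) were not called either. Among those named as falling, Bhlhe40 (-0.84) and Slc2a6 (-1.04) were not called and Ddit4 was not tested. Of the 13 other hypoxia targets tested 1 rose and 4 fell.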

How the data were processed

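Cells of collagenase-digested epididymal fat, sorted for CD45 and CD11b, were profiled with a droplet single-cell method in 3 HFD and 3 control samples. The deposited tables hold UMI counts per gene and cell, 1 matrix per sample. Cell Ranger, Seurat 2.4 and the build mm9 appear without a stated role in the submitters' processing notes. The sources used here do not give whether doublets or free RNA were removed before deposit, and no doublet caller was run.

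Entries were kept from 200 detected genes upward and up to a mitochondrial share of 10% of UMIs, 5402 of 5511 entries, and each barcode was counted in the sample with its largest total, since 1082 of 2195 barcodes were listed in several samples. Clusters were found with scanpy 1.11.5 and leidenalg 0.10.2 (2000 variable genes without the 30 members, 30 principal components, 20 neighbours, resolution 1). A cluster could be named from a list other than the macrophage lists where at least 3 markers of that list were raised by 0.2 or more (natural log). The list's score also had to reach 0.5, or 3 of its markers had to stand among the 10 leading genes. Macrophage-like clusters had a positive macrophage score. They also had at least 6 macrophage markers above the other cells, or 3 lipid-associated or resident markers among the 10 leading genes. These thresholds were set after the data were seen. UMIs were summed per sample and tested with edgeR 4.0.16 in R 4.3.3 (filterByExpr, TMM, quasi-likelihood test, Benjamini-Hochberg adjustment over all genes tested, threshold 0.05), as HFD minus control. The code was tested on simulated data. CPM scale the summed UMIs to 1000000. DESeq2 1.42.0 and the other alternatives are given at the end. Sums outside the macrophage-like clusters, fits in single clusters, thinned sums and sums without cells of more than 20000 UMIs were added after the data were seen.

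The members and lists were chosen with earlier results of these data known. Members were given per sample where called in whole-sample or macrophage-like sums with an average of at least 20 CPM in either diet; Gapdh, Ldha, Slc2a1, Hif1a and Vegfa were given whatever their call. Up to 12 other pathway genes were named by smallest p among those called. Slc16a3 averaged 27.2 CPM in control and so met the rule. Values per sample outside this rule were chosen after they were seen. Protein, strand of counting and reads were not used here.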

Additional observations from a re-analysis of the deposited data

Results flagged for a closer look

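For 3 genes every HFD sample lay on one side of control in one macrophage-like cluster and on the other side in another; the difference between clusters was not tested, and clusters 1 and 3 had only 2 control samples with at least 10 cells. Hilpda had its lowest HFD sample at 275.5 CPM and its highest control sample at 168.2 CPM in cluster 1, and its highest HFD sample at 623.6 CPM and its lowest control sample at 951.7 CPM in cluster 3. For Hk2 the lowest HFD sample was at 19.59 CPM and the highest control sample at 8.319 CPM in cluster 1, while in cluster 3 the highest HFD sample was at 32.61 CPM and the lowest control sample at 47.71 CPM. The Hk2 order in cluster 1 rests on 0 and 1 UMI in control samples 2 and 3. Control sample 1, left out with 9 cells, held 4 Hk2 UMIs of 100411. That is a larger share than in the highest HFD sample (31.06 CPM), so the order would not hold with it. Eno1 had its lowest HFD sample at 246.6 CPM and its highest control sample at 189.4 CPM in cluster 0, and at 254.6 and 232.8 CPM in cluster 1. In cluster 3 its highest HFD sample was at 451.1 CPM and its lowest control sample at 451.3 CPM, a gap smaller than the spread within each diet.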

How the results depend on the processing

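Values changed with the setting as follows, and the cause was not tested. In whole-sample sums, 8 members were called higher (13 with library totals, which shifted the median of all genes to 0.127) and 4 lower (2 as deposited, 0 with barcodes of 1 sample, 2 with the replicate block, 1 with thinned cells). Other pathway genes called higher numbered 14 (9 thinned), and all genes 1593 higher and 1796 lower (965 and 975 with barcodes of 1 sample, 902 and 971 thinned). Hk2 turned to 0.33 with barcodes of 1 sample and 0.08 thinned. In macrophage-like sums, 11 members were called higher (7 with the block, 5 with the C1q gate) and 1 lower (3 with no filter on low counts; 0 with barcodes of 1 sample, DESeq2, the block, no cells over 20000 UMIs or thinned cells). Other pathway genes called higher numbered 6 (2 as deposited, 2 with barcodes of 1 sample, 1 with DESeq2, 2 with the block, 2 thinned, and 3 each with no filter on cells, no cells over 20000 UMIs, clusters of the entries as deposited and the gate), and lower 4 (7 with no filter on low counts, 2 gated). All genes numbered 742 higher and 1028 lower (483 and 627 as deposited, 339 and 458 with barcodes of 1 sample, 364 and 502 thinned, 301 and 478 gated), with 1242 higher under no filter on low counts and 447 higher with the block. Pfkp turned to -0.52 gated. Outside the macrophage-like clusters, 4 members were called higher (7 with library totals, 2 with the block) and 3 lower (1 as deposited, with library totals, with DESeq2 and with the block), and Pfkp turned to 0.08 thinned. Without each sample in turn, members called higher and lower ranged over 6 to 8 and 1 to 3 in whole-sample sums, 5 to 13 and 0 to 3 in macrophage-like sums and 2 to 4 and 1 to 2 outside them; other pathway genes called higher ranged over 9 to 14 in whole-sample and 0 to 7 in macrophage-like sums and lower over 6 to 9 and 3 to 6, and all genes over 1044 to 1639 higher and 1189 to 1694 lower in whole-sample sums and 238 to 1044 higher and 448 to 1266 lower in macrophage-like sums. All HFD samples were above for 12 members in shares of all cells (20 unthinned) and below for 2 (0 unthinned, 1 at 2000 UMIs), and below for 3 in macrophage-like cells (0 unthinned, 1 at 2000 UMIs). The enzyme ratio of 1.54 was 1.38 as deposited and 1.42 without cells over 20000 UMIs, and that of 1.74 was 1.45 as deposited and 2.08 with barcodes of 1 sample. With the planned minimum of 20 cells per sample 0 further classes could be tested; the fits added in 6 single clusters changed both the minimum, to 10 cells, and the unit, and clusters 0, 1 and 3 among them are macrophage-like. Over all cells, HFD and control samples of the same number correlated at -0.157, -0.069 and -0.121, and those of different numbers at -0.023 to 0.15. For the macrophage-like cells alone the same-numbered values were -0.217, 0.014 and -0.088. With only 3 samples per diet, such values cannot decide whether the numbers pair the samples.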

Other observations

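Among barcodes listed in several samples, the entries that were not the largest held 22.3% of kept HFD UMIs and 42.2% of kept control UMIs. As deposited, with every entry counted, the log2 difference in macrophage-like sums was 1.39 for Pgk1 and 0.82 for Eno1, against 0.57 and 0.48 with each barcode in 1 sample. Over all cells, Pgk1 stood at 1.61 to 6.04 CPM in the entries that were not the largest, against 44.7 to 83.8 CPM in the largest. Eno1 stood at 120 to 139 CPM against 299 to 415.5 CPM. The larger differences as deposited are therefore not read as a stronger diet difference, and the part of these entries in them was not tested.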
